A study of Homo sapiens with 21 samples.

Results

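The probesets described here carry no gene symbol of their own but lie, in the order of their numeric ids, between probesets of 1 gene. They were measured on human exon arrays in MCF10A, a non-tumorigenic human mammary epithelial cell line that depends on epidermal growth factor (EGF) for growth. After sorting by id, an unnamed probeset was taken where its nearest lower and its nearest higher probeset with a single symbol carried the same symbol. Of 1384231 probesets, 1014733 had no symbol, and 280434 of these were bracketed in this way. A member was kept where its mean log2(intensity + 16) over the 21 arrays reached the median of all probesets, 5.18, which left 137950 members in 14825 genes. The member just inside this limit had a mean of 5.176994 and the member just outside it 5.176986. That ids follow the order of the genome is an assumption, since probeset positions were not used here. Of 22974 pairs of symbols adjacent by id, 86.8% lay on 1 chromosome of the RefSeq gene table, and 93.5% of those ascended in gene order. Of all pairs, 71.2% lay within 10 genes of each other. The order of probesets within a gene, on which comparisons along a gene rest, was not checked.

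All cells were kept 24 h in medium without EGF and a further 24 h in 1% horse serum. Untreated cells (0 min) were compared with cells given EGF at 20 ng/ml for 20, 40, 60, 120, 240 or 480 min, with 3 arrays at each time, described in the labels as biological triplicates. All 21 arrays come from 1 cell line, and the letters A, B and C of the titles are used as replicates 1, 2 and 3.

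A gene is first copied whole into pre-mRNA, and splicing then removes the introns, most of which are degraded within minutes, while the joined exons persist as mRNA. Signal from introns therefore follows recent transcription, and signal from exons follows the mRNA that has accumulated and not yet decayed. EGF binds its receptor tyrosine kinase and activates the ERK cascade, which is known for switching on immediate early genes within minutes, then feedback inhibitors, and later genes of migration and growth. Whether a given member lies in an intron, an exon missing from the annotation or another transcript was not determined here.

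A CArG box, the site bound by serum response factor (SRF), a factor that ERK and actin signalling activate, was searched on both strands in the 250 bases before each RefSeq gene start (GRCh38.p14). It was present in 14 of the 198 promoters of genes whose bracketed signal rose at 20 min, or 7.07%. The share was 1.08% of the 8886 promoters of all genes tested and 1.14% of all 27305 promoters in the table. It was 1 of 5 motifs searched on both strands and is shown because the ratio of its share to that of the genes tested was the highest, a choice made after the shares were seen. The AP-1 site, TGACTCA or TGAGTCA, was in 6.57% of the 198 promoters against 2.59% of those of all genes tested, and TATAAA in 12.6% against 5.78%. TGACG, the core of the cyclic AMP response element, was in 35.4% against 27.7%, and the full palindromic element, which contains it, in 4.04% against 2.58%. A match is a description of the letters and does not show binding. The 4 promoters below belong to the CArG-bearing genes with the largest rise of bracketed signal at 20 min, written in the direction of transcription and ending 1 base before the start, with the CArG box in capitals.

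TPM4, chr19:16067288-16067537, plus strand: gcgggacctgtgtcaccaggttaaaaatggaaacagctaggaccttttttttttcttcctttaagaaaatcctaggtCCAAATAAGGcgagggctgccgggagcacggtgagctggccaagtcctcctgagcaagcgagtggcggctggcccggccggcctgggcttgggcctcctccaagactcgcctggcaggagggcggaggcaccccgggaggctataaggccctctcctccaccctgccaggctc

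RND3, chr2:150487696-150487945, minus strand: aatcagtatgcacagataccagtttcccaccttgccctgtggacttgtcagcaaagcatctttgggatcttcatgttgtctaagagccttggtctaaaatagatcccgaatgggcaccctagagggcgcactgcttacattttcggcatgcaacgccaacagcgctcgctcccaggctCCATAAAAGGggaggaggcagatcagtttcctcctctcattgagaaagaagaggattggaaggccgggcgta

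GBP1, chr1:89065209-89065458, minus strand: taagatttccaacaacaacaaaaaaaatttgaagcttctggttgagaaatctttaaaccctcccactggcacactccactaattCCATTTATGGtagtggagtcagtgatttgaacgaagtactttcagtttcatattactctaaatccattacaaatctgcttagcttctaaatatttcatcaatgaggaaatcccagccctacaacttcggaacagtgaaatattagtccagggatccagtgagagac

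PLAC8, chr4:83114730-83114979, minus strand: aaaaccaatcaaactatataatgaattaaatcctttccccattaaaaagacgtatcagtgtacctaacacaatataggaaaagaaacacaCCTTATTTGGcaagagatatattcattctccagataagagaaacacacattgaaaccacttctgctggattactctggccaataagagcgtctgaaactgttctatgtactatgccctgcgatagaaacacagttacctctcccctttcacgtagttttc

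The box lay at bases -173 to -164 before the start of TPM4, which encodes a tropomyosin that coats actin filaments. It lay at -72 to -63 in RND3, at -166 to -157 in GBP1, which encodes an interferon-inducible GTPase, and at -160 to -151 in PLAC8. The bracketed signal of these genes rose at 20 min by 1.76 ± 0.17 in TPM4, 1.42 ± 0.16 in RND3, 1.16 ± 0.13 in GBP1 and 1.10 ± 0.18 in PLAC8 on the log2 scale (± SE).

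A gene's bracketed value is the median of log2(intensity + 16) over its kept members on an array, and its named value is the same median over its kept probesets with that symbol alone. Both needed at least 3 probesets. A bracketed value was computed for 10985 genes, with a median of 8 members and a maximum of 273, and both values for 10757. Changes are differences of means against 0 min from 1 limma fit over all 21 arrays, genes are called where the p adjusted by Benjamini-Hochberg over all genes tested is under 0.05, and "rose" and "fell" are used of called changes. The p-values measure the spread between the triplicates. They do not allow for members that passed the filter only through the times at which they were high. The added 16 makes changes of dim probesets smaller than the change of the intensity itself. This bears on bracketed values in particular: in the top 25% of genes by named level the median named level was 8.38 and the median bracketed level 6.10, and in the bottom 25% they were 5.90 and 5.86.

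Of all members 49.2% passed the filter, against 73.7% of single-symbol probesets and 38.5% of the other unnamed ones. The median intensity differed little from array to array, from 20.44 to 20.56. By named values, 8 of 8 measured markers of basal epithelium lay above the median of all genes, with a mean level of 10.5 to 10.8 on the arrays. For luminal epithelium this was 4 of 7, at 7.18 to 7.56, and for fibroblasts 3 of 9, at 6.27 to 6.57. The difference between the median of named and of unnamed probesets, an index of each array, averaged 1.24 at 0 min and 1.27 to 1.32 at the EGF times. It moved with the groups and is built from the named and unnamed signal compared here. Fits with it as a covariate are given below, but they cannot separate its part from the change after EGF.

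The bracketed probesets had their largest share of higher calls at 60 min, or at 40 min with the array index as a covariate, and the single-symbol probesets theirs at 480 min. At 20 min, 1683 kept members were higher (1.22%) and 140 lower (0.101%), against 0.516% and 0.0631% of all kept probesets and 0.249% and 0.0616% of the other unnamed ones. In these extracts of 1 cell line a change in cell number and a change in RNA per cell cannot be told apart. At 40 min 2.34% of the members were higher and 1.18% lower, against 1.16% and 0.524% of all kept probesets. At 60 min 3.35% were higher and 2.04% lower, against 2.21% and 1.1%. By 120 min the members had 3.17% higher and 2.44% lower and all kept probesets 3.5% and 1.79%. The members then had 2.32% higher and 1.8% lower at 240 min, and 1.33% and 2.9% at 480 min. All kept probesets had 3.77% and 2.14% at 240 min, and 4.02% and 3.03% at 480 min. Among single-symbol probesets the share that was higher was 0.448% at 20 min and 7.79% at 480 min. The count of called members in both directions, 1823 at 20 min, was 1127 without 20 min replicate 2, 1179 without replicate 1 and 3227 without replicate 3. It was 4857 at 40 min and 3213 without 40 min replicate 3, and 7440 at 60 min, 3544 without 60 min replicate 3 and 4729 without 0 min replicate 2. It was 7739 at 120 min, with 4691 and 3967 without 120 min replicates 2 and 3, and 5687 at 240 min, with 3345, 2859 and 2686 without 240 min replicates 1, 2 and 3. At 480 min it was 5843, with 3112 and 3045 without 480 min replicates 1 and 3. With the array index as a covariate the split of higher to lower members was 1253 to 206 at 20 min and 3914 to 3358 at 40 min, in place of 1683 to 140 and 3233 to 1624. It was then 2826 to 3388 at 60 min, 3059 to 4685 at 120 min and 2743 to 3629 at 240 min, in place of 4626 to 2814, 4367 to 3372 and 3207 to 2480, and at 480 min 2754 to 7350 in place of 1836 to 4007. With each kind of probeset centred on its own median it was 2751 to 3197 at 480 min.

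Counted by gene, the bracketed value was higher in 237 genes at 20 min (2.16%) and lower in 71 (0.646%). At 40 min 399 genes were higher (3.63%) and 453 lower (4.12%), and at 60 min 578 (5.26%) and 518 (4.72%). At 120 min 486 were higher (4.42%) and 485 lower (4.42%), at 240 min 272 (2.48%) and 266 (2.42%), and at 480 min 129 (1.17%) and 343 (3.12%). Counts of called genes by the named value were larger at each later time, from 149 genes higher (0.897%) and 14 lower (0.0843%) of 16614 at 20 min to 2573 (15.5%) and 1182 (7.11%) at 480 min, whereas the bracketed counts were largest at 60 min in both directions. Over the 6 times together, 2053 genes (18.7%) changed in the bracketed value by the moderated F-test. The median bracketed change of all genes lay between -0.06 and -0.03 at every time.

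**Figure D1:**
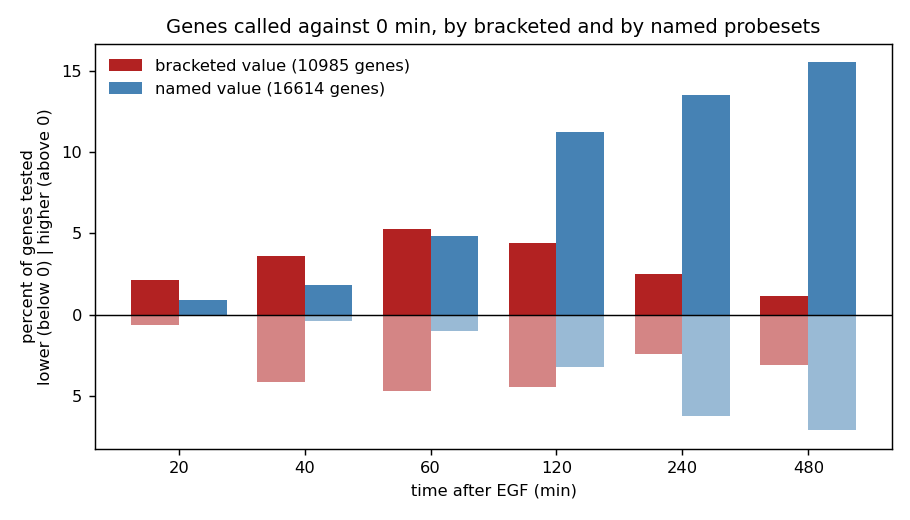
Percent of genes called higher (bars above 0) or lower (paler bars below 0) than at 0 min at each time after EGF, for 10985 genes by bracketed value and 16614 genes by named value. The bracketed bars are tallest at 60 min, at 5.26% higher (at 40 min with the array index as a covariate, not drawn), and the named bars at 480 min, at 15.5% higher.

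These counts rested in part on single arrays. The 308 genes at 20 min were 189 without 20 min replicate 2 and 573 without replicate 3, and the 1096 at 60 min were 584 without 60 min replicate 3. The 971 at 120 min were 631 and 590 without 120 min replicates 2 and 3 and 624 without 0 min replicate 3. The 538 at 240 min were 278, 283 and 295 without 240 min replicates 1, 2 and 3, and 351 and 312 without 0 min replicates 2 and 3. The 472 at 480 min were 255 and 289 without 480 min replicates 1 and 3 and 281 without 0 min replicate 3. When bracketed and named probesets were each centred on their own median, 210 genes were higher and 260 lower at 480 min, a share of 44.7% higher in place of 27.3%. With the array index as a covariate the split was 191 higher to 80 lower at 20 min, 496 to 834 at 40 min, 411 to 679 at 60 min, 356 to 614 at 120 min, 242 to 411 at 240 min and 222 to 750 at 480 min. In that fit both directions had their largest count at 40 min, not at 60 min.

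Transcription factors of the immediate early response led at 20 min. Of 16 measured members of this list of 30, 10 were higher in the bracketed value and none lower, with a median change of 1.38 against -0.04 over all genes. Of all genes tested, 2.16% were higher and 0.646% lower. ATF3, a stress-induced factor, rose by 3.37 ± 0.20 and FOS, a subunit of AP-1, by 3.18 ± 0.16. Of the 3 kept members of ATF3, the fewest allowed, 2379138 rose by 4.26 and 2379137 by 1.85. With a mean level of 5.30, 2379138 passed the filter only through the 20 min arrays, and without it ATF3 would have no bracketed value. The brightest member, 2379134, changed by 0.47, which was not called (adjusted p = 0.53). The gene value is a median of levels, so its change of 3.37 is not that of any 1 member. KLF6 rose by 2.66 ± 0.15 and NR4A2, an orphan nuclear receptor, by 2.02 ± 0.12. JUN, EGR1, FOSB, IER2 and MYC are on the list but each had fewer than 3 kept members. By 40 min 8 of the 16 were higher and 1, CITED2, lower, and at 240 min the 2 that were higher were FOSL1 and KLF6. FOSL1, another AP-1 subunit, was higher at all 6 times, by 2.17 ± 0.16 at 40 min and 0.80 ± 0.16 at 480 min.

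The arrays of FOS show how short its bracketed signal was. The bracketed value was 4.82, 5.36 and 5.04 in the replicates at 0 min and 8.17, 8.55 and 8.06 at 20 min. It was 6.47, 6.61 and 6.34 at 40 min and 5.74, 6.08 and 5.84 at 60 min. Arrays from 20 to 60 min lay above all untreated arrays, and those from 120 min on overlapped them. The named value was 5.68, 5.99 and 5.06 at 0 min, 9.98, 9.87 and 9.82 at 20 min and 10.62, 10.68 and 10.08 at 40 min, and at 480 min it was still above the untreated arrays at 7.05, 6.82 and 6.63. FOS had 3 kept members: at 20 min 3544533 rose by 4.02, 3544535 by 3.86 and 3544529 changed by 0.78, which was not called (adjusted p = 0.25). With a mean level of 5.23, 3544533 passed the filter only through the 20 min arrays, and without it FOS would have no bracketed value. In NR4A1, a nuclear receptor of the same early class, 3 of 7 members rose at 20 min, 3415244 by 4.99, 3415246 by 2.75 and 3415243 by 2.30. They are neighbours by id, and the other 4 members, all at lower ids, were not called.

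Some feedback regulators of ERK and EGFR signalling also rose at 20 min. At 20 min 4 of 14 measured were higher and none lower, and at 60 min 6 and 1. Over all genes 2.16% were higher and 0.646% lower at 20 min, and 5.26% and 4.72% at 60 min. DUSP5, a nuclear phosphatase of ERK, rose by 3.17 ± 0.17 at 20 min, and ERRFI1, which binds and inhibits the EGF receptor, by 2.25 ± 0.17. DUSP6, the cytoplasmic counterpart of DUSP5, was higher at all 6 times. Its bracketed value was 4.97, 5.26 and 5.27 at 0 min, 6.89, 7.07 and 6.91 at 20 min and 8.20, 8.40 and 8.45 at 60 min. It was 7.59, 7.21 and 7.68 at 480 min, and no array after EGF overlapped the untreated ones. SPRY4, an inhibitor upstream of ERK, changed by 0.28 ± 0.11 at 20 min, which was not called (adjusted p = 0.22), and rose by 1.91 ± 0.11 at 120 min. LRIG3, a membrane protein of the family of the receptor inhibitor LRIG1, was lower by -1.68 ± 0.16 at 40 min and -1.23 ± 0.16 at 60 min.

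Of the EGF family, 2 of 11 measured genes were higher at 20 min, 3 at 40 min and 4 at 60 min. None was lower at 20 or 40 min and 1, the receptor ERBB3, was lower at 60 min, by -0.33 ± 0.09, and at 120 min. Over all genes 2.16%, 3.63% and 5.26% were higher at 20, 40 and 60 min, and 0.646%, 4.12% and 4.72% lower. HBEGF, a ligand of the EGF receptor, rose by 2.41 ± 0.17 at 20 min and 2.97 ± 0.17 at 40 min. Its bracketed value was 4.93, 5.10 and 4.69 at 0 min, 8.15, 7.80 and 7.67 at 40 min and 6.25, 6.37 and 6.13 at 480 min, so that every time stayed above the untreated arrays. TGFA, a second ligand, changed by 0.20 ± 0.15 at 20 min, not called (adjusted p = 0.52), and rose by 1.63 ± 0.15 at 40 min and 1.76 ± 0.15 at 60 min. The other member higher at 20 min was EREG, at 1.00, and this call was lost without 0 min replicate 2 and without 20 min replicate 1 or 2. Of 9 measured cytokines and NF-kB targets, 4 were higher at 20 min and 6 at 40 min, and none was lower at any time. NFKBIZ, a nuclear regulator of NF-kB, rose by 2.52 ± 0.20 at 20 min and the chemokine CXCL2 by 2.05 ± 0.19. NFKB1, a subunit of NF-kB, rose at 40 min, by 0.99 ± 0.18, and at 60 min, by 1.44 ± 0.18.

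At 20 min more genes of adhesion and the actin skeleton were called by their bracketed than by their named value. This also held over all genes: of the 10757 with both values, 235 were higher by the bracketed and 95 by the named value. Of all genes with a bracketed value, 2.16% were higher and 0.646% lower at 20 min. Of 20 measured genes of matrix, proteolysis and migration, 10 were higher and 1, the protease MMP14, lower at 20 min, and 1 was higher by the named value. Their median bracketed change was 0.56. Of 20 measured SRF and YAP targets of the actin skeleton, 10 were higher and 1, AJUBA, lower at 20 min, and 3 were higher by the named value. Their median bracketed change was 0.54. The test of the bracketed minus the named change at 20 min called 4 of the first 20 and 5 of the second, all with the bracketed change higher. Over all genes with both values 0.837% were called in this direction. By the named value 7 of the first and 7 of the second were higher at 40 min, 11 and 6 at 60 min and 15 and 7 at 480 min. THBS1, a matrix glycoprotein, rose by 1.78 ± 0.16 in the bracketed value at 20 min, with a named change of 0.18 ± 0.10. In SERPINB2, an inhibitor of plasminogen activators, these were 1.82 ± 0.14 and 0.24 ± 0.11, and in ACTB, cytoplasmic actin, 1.54 ± 0.14 and 0.19 ± 0.10. In TPM4 they were 1.76 ± 0.17 and 0.15 ± 0.14. In CCN1, a matricellular protein, both rose, by 2.05 ± 0.24 and 2.43 ± 0.13. MYH9, the heavy chain of a non-muscle myosin, changed by 0.05 ± 0.13 at 20 min and rose by 1.55 ± 0.13 at 40 min, while its named value changed by -0.01 ± 0.11. ACTB and YWHAZ, on a list of 15 reference genes of which 13 were measured, were the members of that list higher at 20 min. YWHAZ rose by 0.99 ± 0.17 with a named change of 0.03 ± 0.16.

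Other genes led at 20 min outside these lists. GLIPR1 rose by 2.62 ± 0.16, with a named change of 0.36 ± 0.13 that was not called. BCL10, an adaptor of NF-kB signalling, rose by 2.49 ± 0.17, CSRP1, a LIM protein of the actin skeleton, by 2.44 ± 0.22 and ARF4, a GTPase of Golgi transport, by 2.30 ± 0.22. KRT6B, a keratin of activated epidermis, was higher at all 6 times and rose by 2.17 ± 0.15 at 20 min, when its named change was 0.00 ± 0.12. Falls at 20 min were smaller. ATP5PO, a subunit of ATP synthase, was lower by -0.96 ± 0.19 and the histone gene H2AC6 by -0.74 ± 0.15. The call of ATP5PO was lost with no filter on low values and with means over probesets.

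Other large rises came at 40 and 60 min, in part in genes already higher at 20 min. EZR, ezrin, which ties the membrane to actin, rose by 1.46 ± 0.18 at 20 min and 2.59 ± 0.18 at 40 min, and ITGB1, the integrin beta 1 chain, by 1.27 ± 0.18 and 2.01 ± 0.18. SLC20A1, a phosphate transporter, rose by 2.44 ± 0.15 and stayed higher at every time. ODC1, the rate-limiting enzyme of polyamine synthesis, rose by 2.06 ± 0.16, and PLAUR, the urokinase receptor, by 2.07 ± 0.17. At 60 min UPP1, uridine phosphorylase, rose by 2.48 ± 0.21, HOMER1, a scaffold protein, by 2.37 ± 0.19, and GJB2, a gap junction protein, by 2.27 ± 0.12. CD44, the hyaluronan receptor, with 60 kept members, changed by 0.45 ± 0.18 at 40 min, not called, and rose by 1.54 ± 0.18 at 60 min.

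More genes fell at each time from 40 min on than at 20 min, among them genes that FOXO factors are known to drive in resting cells. Of 25 measured genes of FOXO, ID and quiescence, 2 were higher and 0 lower at 20 min, 0 and 6 at 40 min, 1 and 8 at 60 min, 1 and 9 at both 120 and 240 min and 1 and 7 at 480 min. The 2 at 20 min were IRS2, an adaptor of the insulin receptor, at 0.79 ± 0.15, and YPEL5, at 0.81 ± 0.19. The median change of the 25 was -0.25 at 40 min and -0.31 at 60 min, and the member that was higher at 60 min was IRS1, a second such adaptor. Over all genes 0.646% were lower at 20, 4.12% at 40, 4.72% at 60, 4.42% at 120, 2.42% at 240 and 3.12% at 480 min. FBXO32, a ubiquitin ligase subunit and FOXO target, had bracketed values of 7.87, 7.71 and 7.50 at 0 min and 7.31, 7.72 and 7.22 at 20 min. These overlapped, whereas at 40 min it had dropped below all untreated arrays, to 5.85, 5.94 and 5.40. Single members fell before that: of 11 kept members of FBXO32, the 4 with the highest ids were lower at 20 min, 3151650 by -0.96, 3151656 by -1.16, 3151658 by -3.32 and 3151659 by -2.29. The named value was 9.05, 9.08 and 9.23 at 0 min and 9.15, 9.03 and 8.85 at 40 min, still overlapping, and 6.27, 6.35 and 6.58 at 120 min. TXNIP, an inhibitor of thioredoxin, had bracketed values of 7.51, 7.90 and 7.96 at 0 min and 6.27, 5.81 and 5.85 at 40 min. Its named value changed by -0.27 ± 0.10 at 40 min, not called, and fell at 60 min by 0.87 on the log2 scale. The cell cycle inhibitor CDKN1B was lower by -0.68 ± 0.14 at 40 min in the bracketed and by -0.77 ± 0.16 at 120 min in the named value. H2AC6 was lower by -1.81 ± 0.15 and PDCD4, an inhibitor of translation, by -1.40 in the bracketed value at 40 min.

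Fewer genes were called in the bracketed value at 480 than at 60 min. At 480 min HMGA2, an architectural chromatin protein, was higher by 1.74 ± 0.19 in the bracketed value and S100A2, a calcium-binding protein, by 1.41 ± 0.16. MDM2, the ubiquitin ligase of p53, fell to a change of -1.65 ± 0.19 at 120 min, with a named change of -0.45 ± 0.13. SULT1E1, estrogen sulfotransferase, was lower by -2.12 ± 0.20 at 480 min, DLEU2, a long noncoding host of miRNAs, by -1.56 ± 0.18 and GCLC, the first enzyme of glutathione synthesis, by -1.47 ± 0.15. BCL2L11, the apoptosis inducer BIM, was lower by -1.36 ± 0.18. With no filter on low values the calls of SULT1E1 at 120, 240 and 480 min were lost. The 30 measured long genes of signalling and adhesion had none higher or lower at 20 min. There were 2 higher and 0 lower at 40 min, 2 and 3 at 60 min, 1 and 3 at 120 min, 2 and 4 at 240 min and 0 and 5 at 480 min, the last including VAV3 and NAV2. Over all genes 1.17% were higher and 3.12% lower at 480 min.

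Whether the bracketed and the named value of a gene moved unequally was tested on their difference within each array. At 20 min the bracketed change was higher than the named change in 90 genes (0.837%) and lower in 39 (0.363%). At 40 min these were 156 (1.45%) and 259 (2.41%), at 60 min 135 (1.25%) and 510 (4.74%), and at 120 min 81 (0.753%) and 673 (6.26%). At 240 min they were 184 (1.71%) and 754 (7.01%), and at 480 min 252 (2.34%) and 1594 (14.8%). The split depends on how arrays are centred. With each kind of probeset centred on its own median it became 192 to 215 at 40 min, 211 to 359 at 60 min, 145 to 394 at 120 min, 279 to 594 at 240 min and 529 to 923 at 480 min. With the array index as a covariate it was 84 to 26 at 20 min, 197 to 306 at 40 min, 94 to 246 at 60 min, 103 to 404 at 120 min, 307 to 656 at 240 min and 482 to 1378 at 480 min.

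Single arrays moved these counts as well. The 129 genes at 20 min were 83 without 20 min replicate 2 and 199 without replicate 3, and the 415 at 40 min were 247, 227 and 265 without 40 min replicates 1, 2 and 3. The 645 at 60 min were 378 and 245 without 60 min replicates 1 and 3 and 365 without 0 min replicate 1. The 754 at 120 min were 365 and 372 without 120 min replicates 2 and 3 and 481 without 0 min replicate 1. The 938 at 240 min were 528 and 470 without 240 min replicates 2 and 3, and the 1846 at 480 min were 1209 and 1129 without 480 min replicates 1 and 3.

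Genes whose bracketed change was higher than the named change early include EZR and ITGB1, with differences of 1.81 ± 0.18 and 1.79 ± 0.16 at 40 min. In EZR the bracketed value was 6.24, 6.41 and 6.46 at 0 min, 9.19, 8.89 and 8.80 at 40 min and 6.26, 6.12 and 6.37 at 480 min. Its named value was 9.38, 9.32 and 9.23, then 10.29, 9.81 and 10.17 at 40 min, and 9.77 to 10.04 at 480 min, so that at 480 min the bracketed arrays overlapped the untreated ones and the named arrays lay above them. In ITGB1 the named value at 40 min, 10.11, 9.95 and 10.10, overlapped the untreated 10.03, 9.67 and 9.79, while the bracketed value had gone from 6.86, 6.74 and 6.76 to 8.86, 8.81 and 8.74. P-cadherin, CDH3, differed by 1.41 ± 0.19 and MYH9 by 1.56 ± 0.12 at 40 min.

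The reverse was seen in early genes from 20 min on. Of the 16 immediate early transcription factors, the bracketed change was lower than the named change in 4 at 20, 8 at 40 and 9 at 60 min. It was higher in 3, 0 and 0. Over all genes with both values 0.363%, 2.41% and 4.74% were lower and 0.837%, 1.45% and 1.25% higher. At 60 min the bracketed change of NR4A1 was 0.01 ± 0.19 and the named change 4.32 ± 0.12. On the arrays the bracketed value of NR4A1 was 5.66, 5.74 and 5.76 at 0 min, 7.80, 7.92 and 7.56 at 20 min and 5.82, 5.88 and 5.49 at 60 min. The named value was 5.54, 5.35 and 5.10, then 8.81, 8.45 and 8.55, and then 9.72, 9.72 and 9.51. EGR2, a zinc finger factor of the same response, differed by -3.30 ± 0.22 at 60 min, NR4A3 by -2.81 ± 0.22 and CCN2, a matricellular protein, by -2.36 ± 0.24. Late in the course the bracketed value also stayed below named values that went on rising. In NT5E, which encodes the ectonucleotidase CD73, the bracketed value was 5.50, 5.42 and 5.60 at 0 min and 6.50, 6.44 and 6.58 at 480 min. The named value of NT5E was 5.50, 5.82 and 5.98 and then 9.18, 8.75 and 9.46. CYP1B1, a cytochrome P450, went the other way. Its named value was lower by -1.61 ± 0.12 at 240 min, and its bracketed change of 0.24 ± 0.23 was not called.

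**Figure D2:**
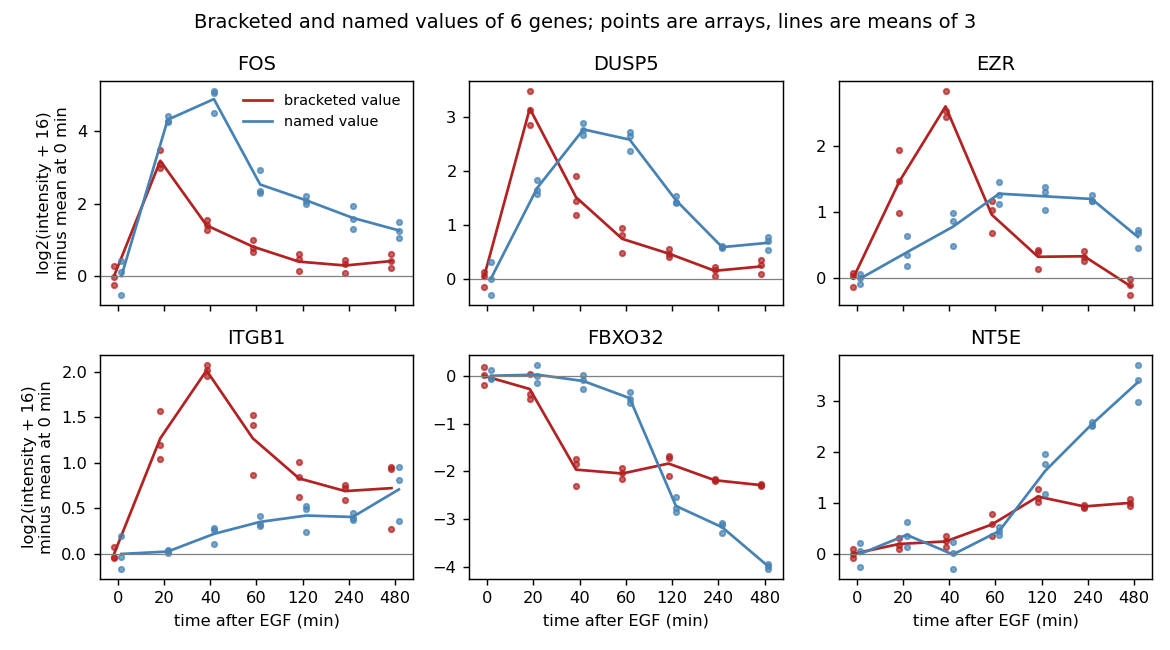
Bracketed and named values of FOS, DUSP5, EZR, ITGB1, FBXO32 and NT5E, as log2(intensity + 16) minus the mean at 0 min, against time after EGF in min on an axis with equal steps. Points are single arrays and lines join the means of 3; bracketed values peak or drop first in FOS, DUSP5, EZR, ITGB1 and FBXO32, and in NT5E the named value ends higher.

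The order of the peaks was compared in the genes that passed the F-test in both values. The time of the largest change was taken for each value. In 755 genes it was a rise in both, and the bracketed value peaked earlier in 619, at the same time in 125 and later in 11. In 351 genes it was a fall in both, with the bracketed value earlier in 206, at the same time in 121 and later in 24. A further 169 genes had opposite signs and were left out. Of the rising genes, 103 had their bracketed peak at 20 min and 32 had it at 480 min, while the named peak counts were 16 and 236. This is a description with no test, and both values share their arrays.

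**Figure D3:**
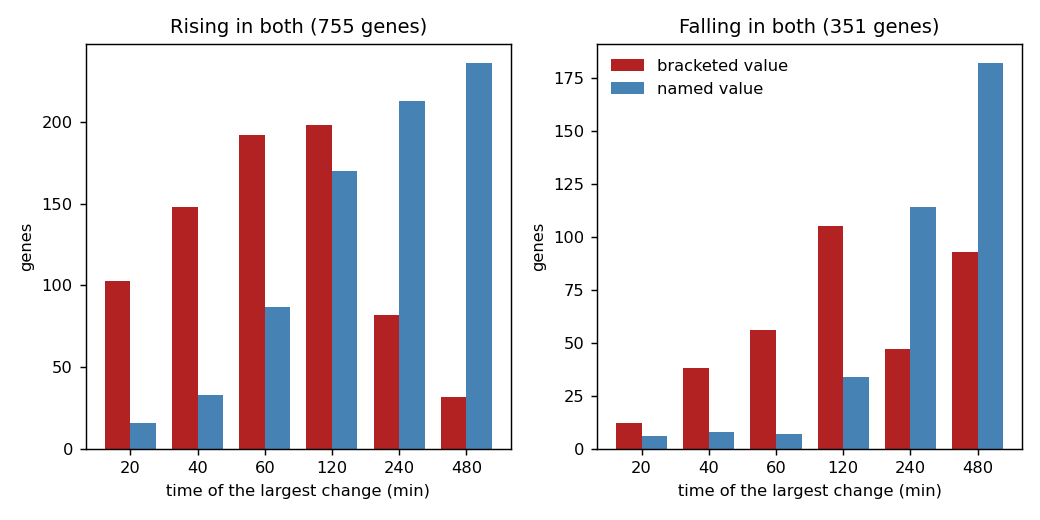
Number of genes by the time in min of the largest change against 0 min, for 755 genes that rose and 351 that fell in both the bracketed and the named value. Rising bracketed values peak most often at 120 min, in 198 genes, and rising named values at 480 min, in 236.

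In a small share of genes the members on either side of the gene changed unequally. For 7301 genes with at least 6 kept members, the members with the lower ids (the lower-id side) were compared with an equal number with the higher ids (the higher-id side), leaving out the middle one of an odd number, within each array. Their changes differed in 102 genes at 20 min (1.4%), 170 at 40 min (2.33%), 189 at 60 min (2.59%), 77 at 120 min (1.05%), 23 at 240 min (0.315%) and 51 at 480 min (0.699%). The strand from RefSeq tells which side lies nearer the gene start, if ids follow the genome. Of the 7301 genes, 3039 lay on the plus and 2911 on the minus strand. The rest, with no strand assigned, were left out of the counts by strand. At 20 min the side nearer the start changed more, in the positive direction, in 27 plus-strand and 31 minus-strand genes, and the other side in 10 and 16. At 40 min the counts were 52 and 41 against 21 and 29. At 60 min they were 54 and 37 against 34 and 33. From 120 min on the start side was not ahead over both strands together: the counts were 10 and 19 against 16 and 19 at 120 min, 1 and 7 against 3 and 6 at 240 min, and 6 and 7 against 13 and 15 at 480 min. Each array left out in turn kept the start side ahead on both strands at 20 and 40 min. At 20 min the start-side counts ran from 18 and 18 without 20 min replicate 2 to 39 and 43 without 20 min replicate 3, and at 40 min from 30 and 20 without 40 min replicate 2 to 50 and 35 without 0 min replicate 1.

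The counts of unequal sides were among those most affected by single arrays. At 20 min there were 59 without 20 min replicate 2. At 40 min there were 110, 89 and 89 without 40 min replicates 1, 2 and 3 and 103 without 0 min replicate 2. At 60 min there were 109 and 59 without 60 min replicates 2 and 3 and 114 and 117 without 0 min replicates 1 and 2. At 120 min there were 26 and 22 without 120 min replicates 2 and 3 and 45 and 20 without 0 min replicates 2 and 3. At 240 min there were 12, 9 and 5 without 240 min replicates 1, 2 and 3 and 9 and 11 without 0 min replicates 2 and 3. At 480 min there were 11 and 16 without 480 min replicates 1 and 3 and 14 and 26 without 0 min replicates 2 and 3.

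For 959 genes with at least 25 kept members and a known strand, the members were then cut by id into 5 segments of near equal size, with segment 1 nearest the gene start. This split was added after the sides had been seen. At 20 min segment 1 was higher in 45 genes (4.69%), segment 2 in 22 (2.29%), segment 3 in 18 (1.88%), segment 4 in 12 (1.25%) and segment 5 in 4 (0.417%). At 40 min these were 77 (8.03%), 74 (7.72%), 69 (7.19%), 55 (5.74%) and 33 (3.44%). Without 20 min replicate 3 the counts at 20 min were 61, 37, 27, 25 and 18, and without 20 min replicate 1 they were 35, 14, 10, 9 and 0. Among the 85 of these genes whose whole bracketed value was higher at 60 min, the median change at 40 min was 0.78 in segment 1 and 0.20 in segment 5, and at 60 min it was 0.73 and 0.66. These 85 genes were chosen on these arrays, so their levels are a description.

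**Figure D4:**
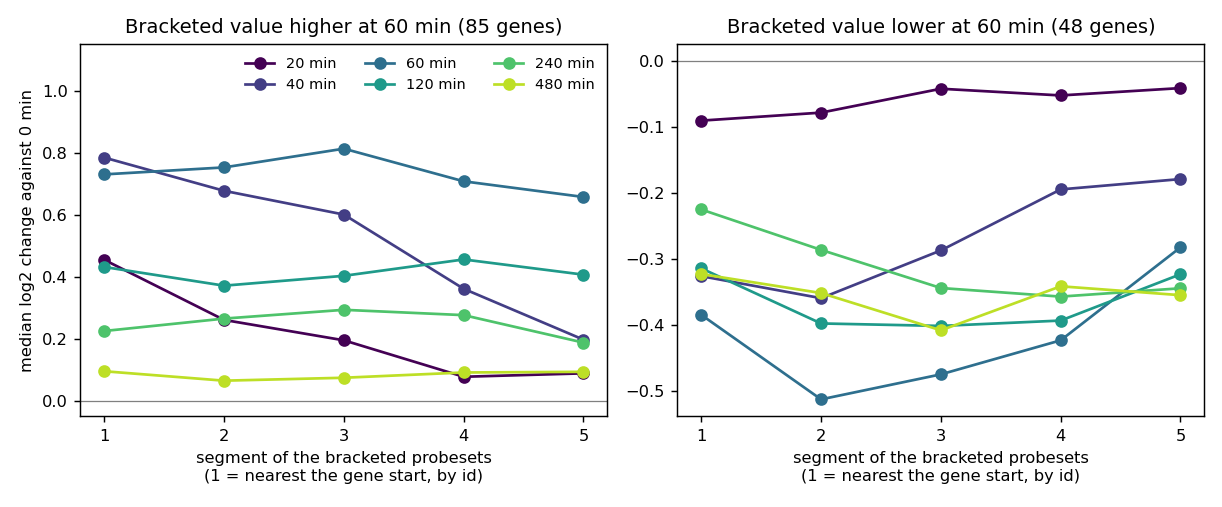
Median log2 change against 0 min of each segment of the bracketed probesets, from 1 nearest the gene start to 5 farthest from it by id, at 6 times after EGF. In the 85 genes higher at 60 min the 20 and 40 min lines slope down with distance, from 0.78 to 0.20 at 40 min, and the 60 min line is near level; the 48 genes lower at 60 min are on the right.

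Single genes of this length show the order of the segments. In PDLIM5, a PDZ and LIM protein of the actin skeleton with 69 kept members, segment 1 rose by 2.45 at 20 min while segments 2 to 5 changed by 0.32 to 0.75, none called. At 40 min segments 1 to 3 of PDLIM5 rose by 2.72, 2.55 and 2.19 and segments 4 and 5 changed by 0.10 and 0.19, not called. At 60 min all 5 rose, by 1.61, 1.90, 2.50, 2.99 and 2.30. The lower-id minus the higher-id side of PDLIM5 was 0.55, 0.46 and 0.13 on the arrays at 0 min, 2.41, 2.53 and 2.30 at 40 min and -0.25, -0.07 and -0.41 at 60 min. These 3 sets did not overlap. PDLIM5 lies on the plus strand.

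In MYO1E, a myosin of the minus strand with 81 kept members, segment 1 rose by 1.94 at 20 min and the other 4 changed by -0.08 to 0.03. At 40 min segments 1 to 3 of MYO1E rose by 2.42, 2.53 and 1.31, and at 60 min segment 4 rose by 2.39. Its lower-id minus higher-id difference was -0.68, -0.50 and -0.40 at 0 min, -2.75, -2.90 and -2.72 at 40 min and 0.19, -0.06 and 0.17 at 60 min, again without overlap. In CALD1, caldesmon, which binds actin and tropomyosin, segment 1 rose by 2.70 at 20 min and its change at 60 min was 0.30, not called, while segments 3 to 5 rose by 1.97, 1.50 and 1.33 at 60 min. In EZR segment 1 rose by 3.22 at 20 min and segment 5 changed by 0.18, not called, and at 40 min all 5 rose, by 2.20 to 2.64. In TGFA segments 4 and 5 rose by 1.01 and 0.84 at 40 min and by 1.71 and 1.84 at 60 min.

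**Figure D5:**
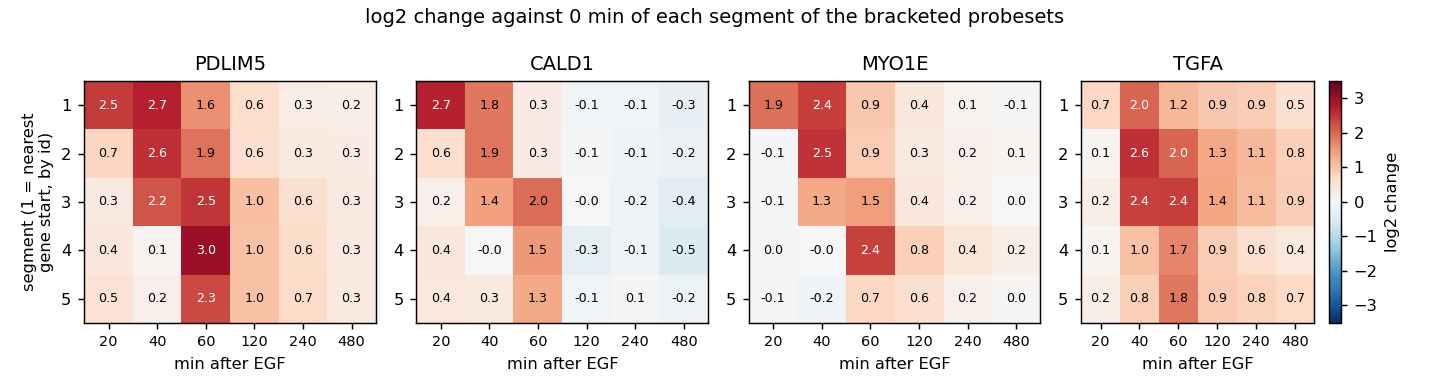
log2 change against 0 min of each segment of the bracketed probesets of PDLIM5, CALD1, MYO1E and TGFA (rows, 1 nearest the gene start by id) at each time after EGF in min (columns); red is higher and blue lower. The highest segment of PDLIM5 is segment 1 at 40 min, at 2.72, and segment 4 at 60 min, at 2.99.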

How the data were processed

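RNA of 21 MCF10A cultures was measured on human exon arrays. The authors deposited linear probeset intensities made with PLIER and Affymetrix Expression Console 1.1, per the submitters' processing notes. How arrays were equalised is not given in the sources used here. Here log2(intensity + 16) was taken, and a gene symbol was used where the platform annotation pairs a probeset with 1 symbol, updated through RefSeq (2950 of the symbols changed, 121 kept as given). Changes were tested with limma 3.58.1 in R 4.3.3 (with the data.table package 1.17.8) in 1 fit over 7 times of 3 arrays, with Benjamini-Hochberg adjustment in each contrast. The scripts were tested on simulated data. The members and gene lists were chosen with earlier results of these data known. Named genes are the largest called changes per time and measure, and list members with the smallest adjusted p; further examples from the lists, and genes named for a promoter or for their segments, were chosen after their values were seen. Probeset positions and target sequences were not used here. The number of arrays limits the precision. Alternatives changed the normalisation, pseudocount (1 and 64), filter, bracket rule, gene summary, minimum number of probesets, covariate, block and arrays.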

Additional observations from a re-analysis of the deposited data

Results flagged for a closer look

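In some genes the side of the gene, by id, whose bracketed probesets changed more was not the same at every time, by a test of the difference itself. These values are the change of the lower-id minus the higher-id side at the later time less that at the earlier one, with limma's adjusted p. From 20 to 60 min it was -2.22 in CALD1 (1.04 to -1.17), -3.29 in CD55 (2.11 to -1.19), -2.39 in FBXO32 (1.65 to -0.74), -1.98 in OSMR (1.12 to -0.86), -1.31 in PDLIM5 (0.68 to -0.62) and -2.5 in PHLDB2 (1.30 to -1.20). From 40 to 60 min it was -2.68 in CALD1, 2.89 in MYO1E (-2.26 to 0.63), -2.66 in PDLIM5 (2.03 to -0.62), -2.9 in RIMKLB (1.45 to -1.45) and 1.49 in TGFA (-0.82 to 0.68). MYO1E and TGFA lie on the minus strand and CALD1, CD55, OSMR, PDLIM5, PHLDB2 and RIMKLB on the plus strand; no strand was assigned to FBXO32, which could not be oriented.

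Other genes rose in the bracketed value at 20 min and were lower than untreated at 480 min, again by a test of the difference. In genes of the cell surface, cell junctions and matrix the 480 min less the 20 min change was -2.3 in CLDN1, -1.5 in DSG3, -1.39 in GPRC5A, -1.42 in the glucose transporter SLC2A1 and -1.43 in MFAP5. In regulators of transcription and signalling it was -1.5 in AHR, -1.6 in FOSL2, -1.64 in VGLL3, -1.29 in SIK1, -2.57 in PLK2, -1.23 in MAP3K14, -2.01 in RND3 and -1.18 in BAG1. It was -2.43 in the tropomyosin TPM1 (1.36 to -1.06), -2.23 in the protease inhibitor CSTA, -1.89 in CPA4, -1.28 in CYB5R1 and -1.78 in GBP1. The highest adjusted p of the bracketed differences was 2.0e-05, in MFAP5.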

How the results depend on the processing

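Counts are of called genes or members in both directions. With means over probesets, bracketed genes numbered 474 at 20, 1616 at 120, 985 at 240 and 831 at 480 min, unequal bracketed and named changes 278, 714, 1135, 1442, 1606 and 2946 over the 6 times, and unequal sides 191, 373, 488, 183, 91 and 83. With only the 6 arrays compared, members numbered 769, 2499, 2683 and 1996 from 20 to 120 min and 2350 at 480 min, bracketed genes 183 at 20, 657 at 60, 464 at 120 and 272 at 480 min, unequal changes 68, 212, 285 and 199 from 20 to 120 min and unequal sides 35, 40, 51, 3, 12 and 2. With the array index as a covariate, members numbered 10104 at 480 min, bracketed genes 1330 at 40 and 972 at 480 min, unequal changes 340 at 60 min and unequal sides 257 at 40, 48 at 120 and 81 at 480 min. With the filter at the 75th percentile, members numbered 4594 at 60 min, bracketed genes 202 at 20, 717 at 60 and 1257 over all times by the F-test, and unequal sides 29 at 480 min; this tests fewer probesets. With no filter, unequal changes numbered 269 at 40 min and unequal sides 9 at 240 and 15 at 480 min. With a pseudocount of 64 they numbered 1450 and 43 at 240 min. Other causes were not tested.

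Leaving out 1 array at a time gave 1127 to 3227, 3213 to 3854, 3544 to 6475, 3967 to 9410, 2686 to 5340 and 3045 to 5579 members over the 6 times. Bracketed genes ran from 189 to 573, 585 to 689, 584 to 1073, 590 to 1118, 278 to 417 and 255 to 386, and by the F-test from 1738 to 2361. Unequal changes ran from 83 to 199, 227 to 296, 245 to 703, 365 to 972, 470 to 777 and 1129 to 1750, and unequal sides from 59 to 150, 89 to 147, 59 to 165, 20 to 61, 5 to 22 and 11 to 60.

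The deviations of same-letter arrays had a median correlation of -0.03 (-0.53 to 0.59), against 0.01 (-0.59 to 0.63) for different letters. The labels do not say whether a letter marks a shared batch, and correlations this widely spread cannot decide it. The replicate block gave 13 in place of 23 unequal sides at 240 min and moved no other count by over 1.5 times. Of 355 changes that the naming rule allows, 92 lost their call under at least 1 alternative or left-out array. Among changes given as not called, the sign turned in CYP1B1 at 240 min (-0.25 with means, -0.76 with no filter), MYH9 at 20 min (-0.019 with the index, and -0.017 to 0.16 over left-out arrays), NR4A1 at 60 min (-0.16 with the stricter filter, -0.082 with means, and -0.061 to 0.13 over left-out arrays) and SPRY4 at 20 min (-0.082 with the stricter filter).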
